A study of Mus musculus with 16 samples.

Results

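The glucocorticoid receptor gene Nr3c1 and 7 classical target genes of the receptor, Fkbp5, Tsc22d3, Anxa1, Klf9, Zbtb16, Ddit4 and Sgk1, were followed in RNA sequencing of mouse neutrophils. The 8 genes were taken by symbol from the 49315 genes of the count files, and each matched 1 row. The cells came from blood and lung of male mice, 8 to 12 weeks of age, by a sort on Ly6G+/CD11b+/CD45.2+. The mice were WT or αD KO (CD11d, the integrin chain encoded by Itgad), and were either naive (the baseline, 0h) or at 12 hours post cecal ligation and puncture (CLP), a surgery under ketamine and xylazine that opens the gut and leads to polymicrobial abdominal sepsis. The 8 groups of genotype, tissue and time held 3 libraries each, 24 in all. They were listed as 16 samples, with 2 files under sample 1 (called libraries 1a and 1b here) and 1 file under sample 2 (library 2). The labels do not say which libraries came from separate mice, so the p-values measure the spread between these libraries, which may be technical. Per the paper's methods, saline and buprenorphine (against pain) were also given under the skin with CLP. None of the 8 groups had surgery without puncture, and steroid levels were not among the data used here. Infection, surgery, anesthesia, the saline and buprenorphine, and the hour of sampling thus cannot be told apart.

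Glucocorticoids are adrenal steroids that rise in blood under stress and infection. The receptor encoded by Nr3c1 waits in the cytoplasm in a complex with HSP90 and its partners, and moves into the nucleus when it binds steroid, where it binds DNA directly or meets other factors. It raises genes that hold back inflammation, shift metabolism and feed back on the receptor, and it lowers many cytokine genes. In neutrophils, glucocorticoids are known for prolonging survival and for loosening adhesion to vessels.

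The labels were checked before the members were read. Itgad stood at 0.0522 to 4.08 CPM in 12 libraries with the WT label, and at 12.6 to 96.1 CPM in 12 with the αD KO label. CPM is each gene's share of its library's counts, put on the usual CPM scale after edgeR's TMM correction of library sizes. The order is opposite to that of a knockout. Gene-level counts cannot separate RNA of a targeted allele from intact RNA, so groups are called by their labels and "αD KO" means the libraries labelled αD KO. Whether the genotype labels were exchanged cannot be told from these counts, and an exchange would turn the sign of every difference between αD KO and WT given here. Each library was also placed on an axis from WT lung 0h (position 0) to WT lung 12h (position 1) over 1340 genes, 3 of them members. These genes were the ones called between 12h and 0h in WT lung, so the WT lung libraries were apart by that choice and are not counted here. Of the other libraries, 8 of the 9 labelled 0h lay between 0.027 and 0.217, and 7 of the 9 labelled 12h between 0.815 and 0.978. The exceptions were all labelled αD KO lung. Library 2 of 0h lay at 1.019, and libraries 1a and 2 of 12h lay at 0.095 and 0.181. The main values that rest on these 3 libraries are also given from edgeR without them, and DESeq2 was not fitted without them. Libraries 1b had counts in 29162 to 38844 genes, against 17132 to 32666 in the other 16 libraries. Total counts were 5753476 to 29984954 per library, and the members' own counts in a library ran from 4 (Ddit4) to 269168 (Anxa1). Ddit4 had 4 to 477 counts in a library, the fewest of the members, and its values are the least precise by counting error.

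The members fell into a pair of patterns. Klf9, Fkbp5, Ddit4 and Anxa1 were higher in each library at 12 hours than in each library at 0h in WT blood, WT lung and αD KO blood, and Zbtb16 was lower in the same way. Nr3c1, Tsc22d3 and Sgk1 overlapped between 0h and 12 hours in all 4 combinations of genotype and tissue. In αD KO lung, all 8 members overlapped. Of all genes tested, 38.0% did not overlap between times in WT blood, 32.1% in WT lung, 33.3% in αD KO blood and 3.53% in αD KO lung. From the lowest to the highest of the 24 libraries, Zbtb16 spanned 135-fold, Klf9 122-fold and Ddit4 105-fold, while Nr3c1 spanned 2.18-fold. Per kilobase of transcript, the median level over 24 libraries was 1030 CPM per kb for Anxa1, 216 for Tsc22d3, 32.4 for Sgk1 and 29.8 for Nr3c1. It was 15.4 CPM per kb for Fkbp5, 2.96 for Zbtb16, 1.75 for Klf9 and 0.891 for Ddit4. When the 8 groups were ordered by mean level, neighbouring groups overlapped in all 7 pairs for each of the 8 members, so the order of neighbours is not resolved.

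**Figure D1:**
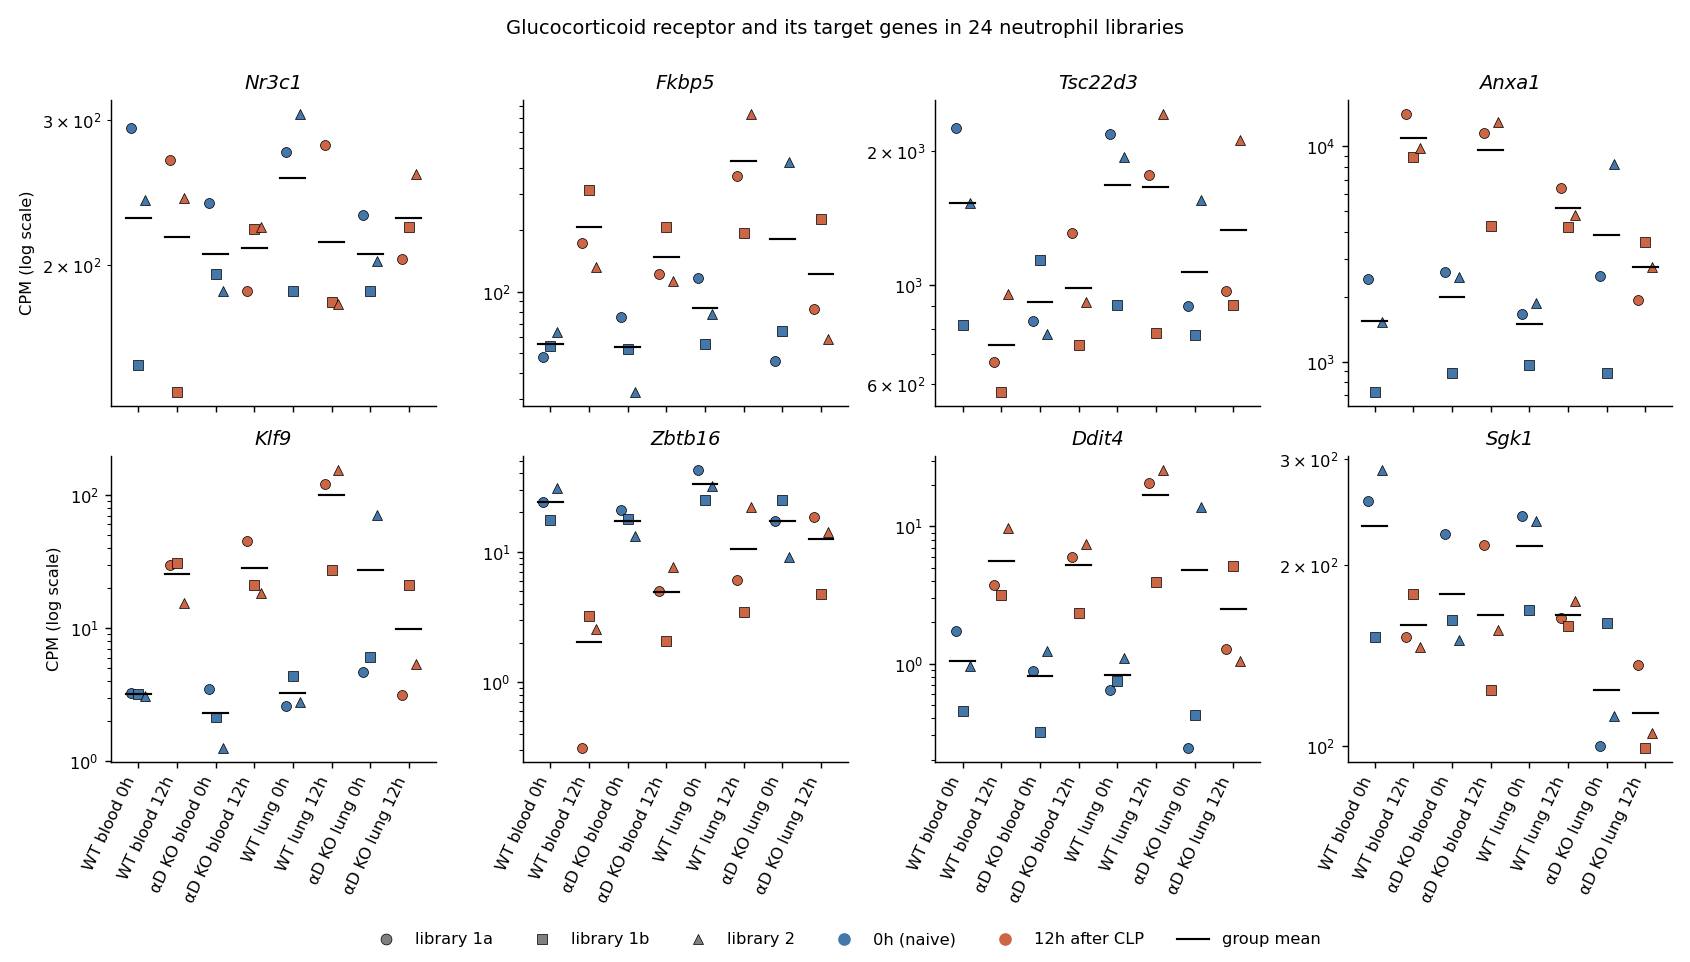
Level of the 8 members in CPM on a log axis, in 8 groups of 3 libraries; symbols mark libraries 1a, 1b and 2, colours mark 0h and 12h, and bars mark the group mean. Klf9, Fkbp5, Ddit4 and Anxa1 sit higher at 12h, and Zbtb16 lower, in WT blood, αD KO blood and WT lung, while αD KO lung overlaps in all panels. Of all genes tested, the times did not overlap for 38.0%, 33.3%, 32.1% and 3.53% in these groups, in that order.

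The receptor came first. Nr3c1 (GRCm38 18:39410545-39491301, minus strand) kept a level between 140 and 305 CPM in all 24 libraries. In WT blood it was 293, 151 and 240 CPM at 0h (libraries 1a, 1b and 2, the order used throughout) and 268, 140 and 241 CPM at 12 hours. In WT lung it was 274, 186 and 305 CPM at 0h and 280, 180 and 179 CPM at 12 hours. The fitted log2 fold change was -0.14 (SE 0.38) in WT blood, -0.27 (SE 0.37) in WT lung and -0.03 (SE 0.25) in αD KO blood, with adjusted p = 0.839, 0.701 and 0.945 by edgeR. Over all strata, which fits 12 hours against 0h across the 4 combinations of genotype and tissue with 12 libraries a side, it was -0.16 (SE 0.16, edgeR adjusted p = 0.528). No change in the receptor's own transcript passed the test, and a missed threshold does not show that its level was the same.

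A DEG was a gene that passed edgeR (quasi-likelihood F test) at a Benjamini-Hochberg adjusted p under 0.05 over all genes tested and an absolute log2 fold change over 1. Between 12 hours and 0h, 13.5% of all genes tested were DEGs in WT blood, 9.02% in WT lung and 8.75% in αD KO blood. Of 9 chaperones of the receptor, 1 was a DEG in each of these, a share near that of all genes, and it was Fkbp4 each time, lower at 12 hours. Fkbp4 encodes FKBP52, the partner of HSP90 that helps the receptor travel to the nucleus, and Fkbp5 encodes its counterpart FKBP51. Fkbp4 was 31.3, 9.79 and 19.6 CPM at 0h in WT blood and 4.39, 2.83 and 2.19 CPM at 12 hours, a log2 fold change of -2.75 (SE 0.51, edgeR adjusted p = 0.0146). It fell by 1.90 on the log2 scale in WT lung (adjusted p = 0.0236) and by 2.87 in αD KO blood (adjusted p = 0.0117). The other 8 chaperones were not DEGs in these comparisons. Of 12 coregulators, 2 were DEGs in WT blood, 1 in WT lung and 1 in αD KO blood, also near the shares of all genes. Smarca4, an ATPase of the chromatin remodelling complex, rose in WT blood (log2 fold change 1.73, adjusted p = 0.00607) and WT lung (1.39, adjusted p = 0.0303). The corepressor Ncor1 fell in WT blood (-1.35, adjusted p = 0.0451). The only coregulator called in αD KO blood was Ncoa3, a coactivator, at -1.02 (adjusted p = 0.0498), named here after its value was seen. Hsd11b1, the enzyme that regenerates active steroid inside cells, was 54.8, 13.7 and 26.3 CPM at 0h in WT blood and 251, 89.2 and 154 CPM at 12 hours. It was a DEG in WT blood (log2 fold change 2.31, adjusted p = 0.0383) and WT lung (2.41, adjusted p = 0.0273), and its value in αD KO blood was 0.73 (adjusted p = 0.509). Of the 6 genes listed for steroid supply and the related mineralocorticoid receptor, 4 were tested in WT blood and in WT lung, and no other was a DEG there. H6pd, which makes the cofactor of that enzyme, was lower over all strata (-1.06, adjusted p = 0.0274). The median of all genes in that fit was -0.62, and Hsd11b1 was not a DEG in it.

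Klf9 (19:23141226-23166911, plus strand) encodes a Krüppel-like transcription factor that the receptor induces directly in many cells. In WT blood it was 3.26, 3.19 and 3.07 CPM at 0h and 29.7, 30.9 and 15.4 CPM at 12 hours. In WT lung it was 2.58, 4.36 and 2.78 CPM at 0h and 121, 27.2 and 154 CPM at 12 hours. The groups stood far apart in both tissues, with library 1b the lowest in lung at 12 hours. The log2 fold change was 2.94 (SE 0.36, edgeR adjusted p = 0.00373) in WT blood and 4.94 (SE 0.64, adjusted p = 0.00713) in WT lung. In αD KO blood, Klf9 was 3.46, 2.14 and 1.26 CPM at 0h and 44.8, 21.1 and 18.2 CPM at 12 hours, a log2 fold change of 3.56 (SE 0.56, adjusted p = 0.0102). Klf9 was the member with the largest fitted change in WT lung and αD KO blood, and Zbtb16 in WT blood.

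Fkbp5 (17:28399095-28517524, minus strand) encodes FKBP51, which lowers the affinity of the receptor for steroid and closes a negative feedback. In WT blood it was 48.3, 54.3 and 63.8 CPM at 0h and 172, 314 and 132 CPM at 12 hours, a log2 fold change of 1.85 (SE 0.39, edgeR adjusted p = 0.0224). In WT lung it was 117, 55.9 and 77.9 CPM at 0h and 367, 193 and 733 CPM at 12 hours, a log2 fold change of 2.32 (SE 0.54, adjusted p = 0.037). No library at 12 hours reached down to the 0h range in either tissue. For αD KO blood, values of 75.7, 52.7 and 32.5 CPM at 0h stood against 122, 207 and 113 CPM at 12 hours, and the difference of 1.40 (SE 0.39) missed the threshold with edgeR (adjusted p = 0.0609). DESeq2's Wald test gave it an adjusted p of 0.00988.

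Ddit4 (10:59949675-59951770, minus strand) encodes REDD1, a stress protein that restrains mTOR signalling. It was the least abundant member. In WT lung it was 0.645, 0.747 and 1.09 CPM at 0h and 20.8, 3.94 and 25.7 CPM at 12 hours, a log2 fold change of 4.31 (SE 0.70, edgeR adjusted p = 0.0139). In WT blood it was 1.72, 0.455 and 0.958 CPM at 0h and 3.71, 3.16 and 9.79 CPM at 12 hours. The blood groups did not overlap, and the log2 fold change of 2.32 (SE 0.74) had an adjusted p of 0.0778 with edgeR. With the library number as a block, it was 2.42 (adjusted p = 0.0204). The αD KO blood values of 0.885, 0.318 and 1.23 CPM at 0h stood against 5.99, 2.34 and 7.37 CPM at 12 hours, a log2 fold change of 2.63 (SE 0.72, adjusted p = 0.0565).

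Anxa1 (19:20373428-20390944, minus strand) encodes annexin A1, a protein stored in neutrophils that signals through formyl peptide receptors and limits leukocyte traffic. It was the most abundant member per kilobase. In WT blood it was 2410, 723 and 1520 CPM at 0h and 14100, 8890 and 9800 CPM at 12 hours, a log2 fold change of 2.75 (SE 0.56, edgeR adjusted p = 0.0197). In αD KO blood it was 2610, 888 and 2460 CPM at 0h and 11500, 4260 and 13000 CPM at 12 hours, a log2 fold change of 2.25 (SE 0.54, adjusted p = 0.041). Library 1b was the lowest of its group in each of these 4 groups. In WT lung, values of 1670, 966 and 1870 CPM at 0h stood against 6430, 4200 and 4820 CPM at 12 hours, and the log2 fold change of 1.77 (SE 0.46) had an adjusted p of 0.0518. The genes of its receptors, Fpr1 and Fpr2, were both DEGs in WT blood and αD KO blood, and Fpr2 in WT lung. Fpr2 was 104, 69.2 and 99.9 CPM at 0h in WT blood and 1060, 518 and 1000 CPM at 12 hours, a log2 fold change of 3.18 (adjusted p = 0.00467). Fpr1 in WT lung was at 2.44 (adjusted p = 0.0504).

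Zbtb16 (9:48654297-48836222, minus strand) encodes PLZF, a zinc-finger transcription factor that glucocorticoids induce in several tissues, and it was the member lower at 12 hours. In WT blood it was 24.1, 17.5 and 30.8 CPM at 0h and 0.313, 3.22 and 2.55 CPM at 12 hours, a log2 fold change of -3.61 (SE 0.74, edgeR adjusted p = 0.0198). In WT lung it was 42.4, 25.1 and 31.9 CPM at 0h and 6.11, 3.44 and 22.0 CPM at 12 hours. Library 2 at 12 hours came close to the lowest 0h library there, and the log2 fold change of -1.69 (SE 0.62) had an adjusted p of 0.126. The αD KO blood values of 20.9, 17.7 and 13.2 CPM at 0h stood against 5.01, 2.07 and 7.62 CPM at 12 hours, a log2 fold change of -1.87 (SE 0.52, adjusted p = 0.059).

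Tsc22d3 (X:140539528-140600659, minus strand) encodes GILZ, the leucine zipper protein that binds NF-kB and AP-1, and Sgk1 (10:21882184-21999903, plus strand) encodes a kinase of ion transport and survival. Tsc22d3 was 2250, 816 and 1530 CPM at 0h in WT blood and 675, 577 and 958 CPM at 12 hours, a log2 fold change of -1.11 (SE 0.47, edgeR adjusted p = 0.165), with overlap at library 1b of 0h. DESeq2 gave -1.14 with an adjusted p of 0.0181. In WT lung Tsc22d3 was 2190, 905 and 1940 CPM at 0h and 1770, 782 and 2420 CPM at 12 hours, and library 1b was the lowest at both times. Its log2 fold change there was -0.06 (SE 0.54, edgeR adjusted p = 0.963), and 0.04 (SE 0.34, adjusted p = 0.958) in αD KO blood. Sgk1 was 256, 152 and 288 CPM at 0h in WT blood and 152, 179 and 146 CPM at 12 hours, a log2 fold change of -0.60 (SE 0.34, edgeR adjusted p = 0.297). In WT lung it was 241, 168 and 237 CPM at 0h and 163, 158 and 174 CPM at 12 hours, with -0.39 (SE 0.32, adjusted p = 0.489). Sgk1 in αD KO blood was 225, 162 and 150 CPM at 0h and 216, 124 and 156 CPM at 12 hours. The ranges of Sgk1 overlapped between times in all 3 comparisons.

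Sequence before the start sites was read for the members from RefSeq (GRCm38.p6), as windows of 300 bases from 250 bases before to 50 bases after a start. The table gave 13 windows for 6 members, 6 of them for Sgk1 and 3 for Tsc22d3, and none for Nr3c1 and Zbtb16. The palindromic element of the receptor was searched on both strands as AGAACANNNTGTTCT, where N is any base. It was found in 1 of the 13 windows, the fifth of Sgk1, and in 3 of 32851 windows of all genes (0.00913%). A looser form, GNACANNNTGTNC, which contains the first, was in that same window alone among the 13 and in 0.475% of all windows. The half-site AGAACA, or TGTTCT on the other strand, was in 4 of the 13 windows and in 19.0% of all. The window of Sgk1 with the element and that of Klf9, which does not hold it, are shown up to the start site as examples. Which of the Sgk1 starts these cells used was not tested. Capitals mark the element, which begins 189 bases before the start at 10:21993701-21993715. These matches are descriptions of letters in short windows, and distal elements were not searched.
Sgk1, chr10:21993640-21993889, plus strand: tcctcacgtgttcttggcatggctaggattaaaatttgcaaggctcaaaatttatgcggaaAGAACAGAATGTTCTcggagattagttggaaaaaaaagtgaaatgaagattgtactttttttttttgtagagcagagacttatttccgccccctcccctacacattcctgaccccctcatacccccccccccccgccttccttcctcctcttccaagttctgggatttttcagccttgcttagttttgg
Klf9, chr19:23140976-23141225, plus strand: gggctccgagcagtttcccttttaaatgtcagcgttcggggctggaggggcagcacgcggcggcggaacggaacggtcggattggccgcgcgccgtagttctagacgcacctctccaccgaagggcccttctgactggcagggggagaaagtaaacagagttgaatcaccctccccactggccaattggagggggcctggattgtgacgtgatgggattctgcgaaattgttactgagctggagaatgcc

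At 12 hours post CLP against 0h in WT blood, 4 of the 8 members were DEGs (Fkbp5, Klf9 and Anxa1 higher, Zbtb16 lower), against 13.5% of 14625 genes tested. The members' median log2 fold change was 0.86 and that of all genes -0.15. In WT lung, 3 members were DEGs (Fkbp5, Klf9 and Ddit4, all higher), against 9.02% of 14859 genes, with a median of 0.85 for members and 0.03 for all genes. In αD KO blood, 2 were DEGs (Klf9 and Anxa1, both higher), against 8.75% of 14156 genes, with medians of 0.72 and -0.14. DESeq2 called 6 members in WT blood (21.4% of all genes), 5 in WT lung (18.9%) and 5 in αD KO blood (17.6%). Its 5 in WT lung and αD KO blood were Fkbp5, Klf9, Ddit4, Anxa1 and Zbtb16, and in WT blood Tsc22d3 was added. Libraries did not overlap between times for 5 members in each of the 3 comparisons, against 38.0% of all genes in WT blood, 32.1% in WT lung and 33.3% in αD KO blood. The library numbers deviated together in WT blood, and the fit with the number as a block called 5 members there, with 14.9% of all genes called. Shares of called genes are given as a background, and members were chosen with results known, so the counts carry no test of the list.

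**Figure D2:**
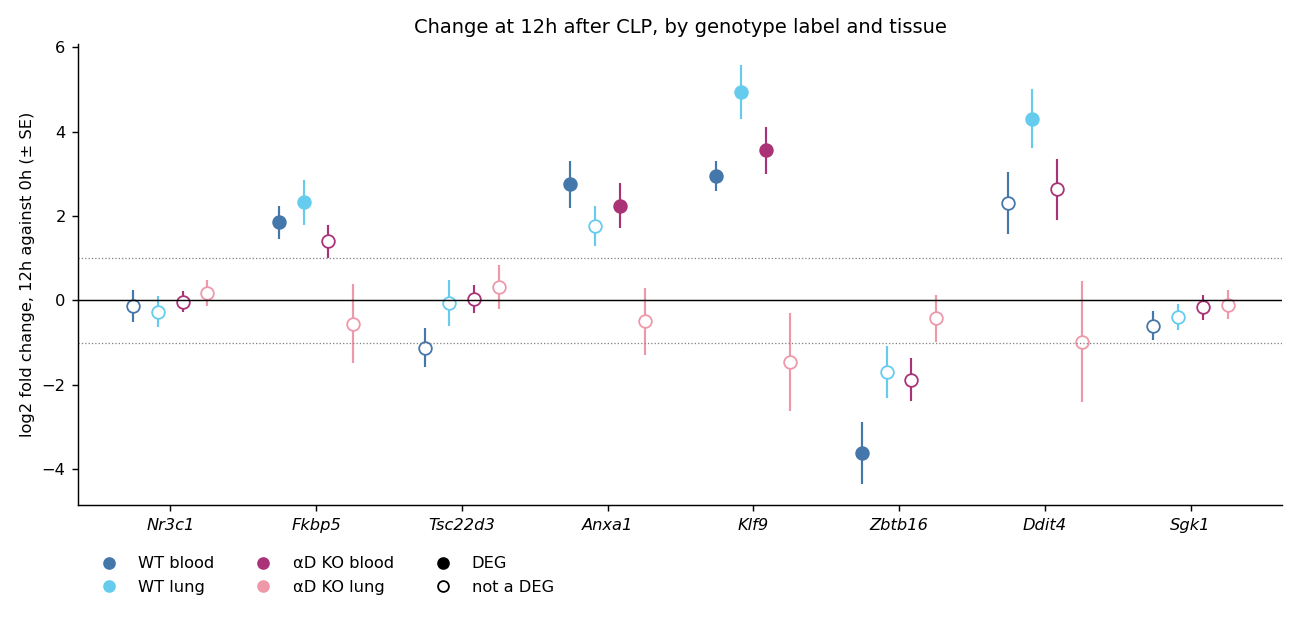
Log2 fold change at 12h against 0h with its SE from edgeR for each member in 4 comparisons of 3 against 3 libraries; filled points are DEGs and dotted lines mark a log2 fold change of -1 and 1. Klf9 reaches 4.94 in WT lung and Zbtb16 -3.61 in WT blood, while points of αD KO lung are open.

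Leaving out a single library changed these counts. Without library 1a or library 2 of either group, 0 members were DEGs in WT blood, and all genes called fell to between 0.00999% and 0.811%. Without library 1b of 0h or of 12 hours, 5 and 4 members were DEGs in WT blood, beside 18.4% and 9.9% of all genes. In WT lung, leaving out library 1a or 2 of either group gave 0 members, with 0.0% to 0.122% of all genes called. Leaving out library 1b there gave 2 members (0h, 5.03% of all genes) and 4 (12 hours, 25.3%). In αD KO blood, no member was a DEG without library 1a of 0h (0.456% of all genes), 3 without library 1b of 12 hours (8.74%), and Klf9 alone without any of the other 4 libraries (0.973% to 4.67%). The direction of Klf9, Fkbp5, Ddit4, Anxa1 and Zbtb16 was the same in each of these fits. Their libraries did not overlap between times, so leaving out 1 library could not be expected to turn it. The log2 fold change of Klf9 was between 2.65 and 3.27 in WT blood, 4.36 and 5.25 in WT lung and 3.07 and 4.07 in αD KO blood. With the 2 files of sample 1 summed, which leaves 2 libraries a group, 6 members were DEGs in WT blood (15.9% of all genes), 4 in WT lung (12.3%) and 2 in αD KO blood (3.84%). On libraries 1a and 2 alone, 6 members were DEGs in WT blood (23.1% of all genes), 5 in WT lung (37.2%) and 3 in αD KO blood (11.0%).

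Markers of other cells and of immature neutrophils moved with time in the same libraries. The summed level of 9 granule genes of immature neutrophils rose from 61.9 to 6780 CPM at 0h to 63800 to 147000 CPM at 12 hours in WT blood, and from 170 to 1310 CPM to 22700 to 49200 CPM in WT lung. Among them Ngp and Chil3 had the highest means, and Elane and Ctsg were at 0 counts in 8 and 9 of the 24 libraries. The 8 B cell markers summed to 345 to 1200 CPM at 0h and 45.2 to 236 CPM at 12 hours in WT blood, and to 483 to 753 CPM and 30.4 to 102 CPM in WT lung. The granule genes in αD KO blood went from 170 to 18100 CPM to 23400 to 94700 CPM, and the B cell markers from 370 to 1470 CPM to 39.0 to 123 CPM. EdgeR called 1 of 7 tested granule genes higher in WT blood, 4 of 6 in WT lung and none of 6 in αD KO blood, and it called 1, 3 and 2 of 8 B cell markers lower, where 13.5%, 9.02% and 8.75% of all genes were called. In WT blood these shares of granule and B cell markers were thus near that of all genes. The sum of 12 monocyte and macrophage markers was 602 to 1180 CPM and 649 to 1100 CPM in WT blood, overlapping between times, while single markers were called in both directions. Of 10 tested in WT blood, 2 were higher and 2 lower at 12 hours (median log2 fold change -1.89), of 9 in WT lung 2 were higher and 2 lower (-0.08), and of 11 in αD KO blood 1 was higher and 3 lower (-2.56). The sum went from 702 to 1670 CPM to 586 to 707 CPM in αD KO blood. Platelet markers (8 genes) summed to 88.3 to 207 CPM at 0h and 22.4 to 53.1 CPM at 12 hours in WT blood, with 4 of 8 called lower. The same sum in αD KO blood was 53.8 to 871 CPM and 15.9 to 73.3 CPM, with 2 of 8 called lower. T and NK cell markers (10 genes) summed to 26.1 to 30.9 CPM and 15.4 to 16.1 CPM in WT blood with none of the 6 tested called, and to 19.8 to 368 CPM and 10.3 to 16.6 CPM in αD KO blood, with 3 of the 9 tested called lower. Neither list had a call in WT lung, where platelet markers went from 41.1 to 57.2 CPM to 27.7 to 89.3 CPM and T and NK cell markers from 17.8 to 23.4 CPM to 11.3 to 17.5 CPM. Over all 8 groups the 8 erythroid markers summed to 23.9 to 8950 CPM and the 12 lung epithelial and endothelial markers to 11.5 to 886 CPM, and between times 1 erythroid marker was called lower in αD KO blood and 1 lung marker in WT blood. Neutrophil markers, among them S100a8 and S100a9, were present in all 24 libraries, with a sum over 9 genes of 37200 to 47500 CPM at 0h and 127000 to 191000 CPM at 12 hours in WT blood. Of these 9 genes, 6 were called higher and 1 lower in WT blood, 2 higher and 1 lower in WT lung, and 4 higher and 1 lower in αD KO blood, so markers of the sorted cells moved with time in the same libraries as the members. The part of these shifts in the members' values was not tested, and in bulk RNA fewer cells of a type cannot be told apart from less RNA per cell.

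In αD KO lung no member was a DEG between 12 hours and 0h with edgeR or DESeq2, and neither tool called any of 17939 genes (0.0% and 0.0%), with 72 and 109 genes at an unadjusted p under 0.05. No member was among the 72, and DESeq2 gave no adjusted p for Klf9 and Ddit4 here. Libraries did not overlap between times for 3.53% of all genes and for 0 of the 8 members. Klf9 was 4.63, 6.06 and 70.6 CPM at 0h and 3.15, 21.2 and 5.37 CPM at 12 hours, so the high value stood in library 2 of 0h and the low ones in libraries 1a and 2 of 12 hours. Fkbp5 was 46, 64.2 and 430 CPM at 0h and 82.7, 225 and 59.1 CPM at 12 hours, and Ddit4 was 0.244, 0.421 and 13.8 CPM against 1.28, 5.13 and 1.04 CPM. Anxa1 was 2510, 885 and 8270 CPM at 0h and 1940, 3580 and 2740 CPM at 12 hours. For all 4 genes the highest library at 0h was library 2, one of the 3 libraries whose position on the axis went against the time label. Zbtb16 was the lowest there in library 2 of 0h, at 9.18 CPM, and in library 1b of 12 hours, at 4.7 CPM. Without the 3 libraries, which leaves 1 library at 12 hours that is assumed to vary like those at 0h, the log2 fold change was 1.88 for Klf9 (edgeR adjusted p = 0.246), 1.93 for Fkbp5 (0.153), 3.84 for Ddit4 (0.0579) and -2.26 for Zbtb16 (0.149). That fit called 1.41% of all genes and no member. With all 6 libraries it was -1.45 (SE 1.17), -0.55 (SE 0.93), -0.97 (SE 1.44) and -0.42 (SE 0.56). The 3 libraries were singled out after the data were seen, by an axis that includes Klf9, Fkbp5 and Ddit4 among its genes. What the labels of these libraries stand for cannot be told from the files.

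**Figure D3:**
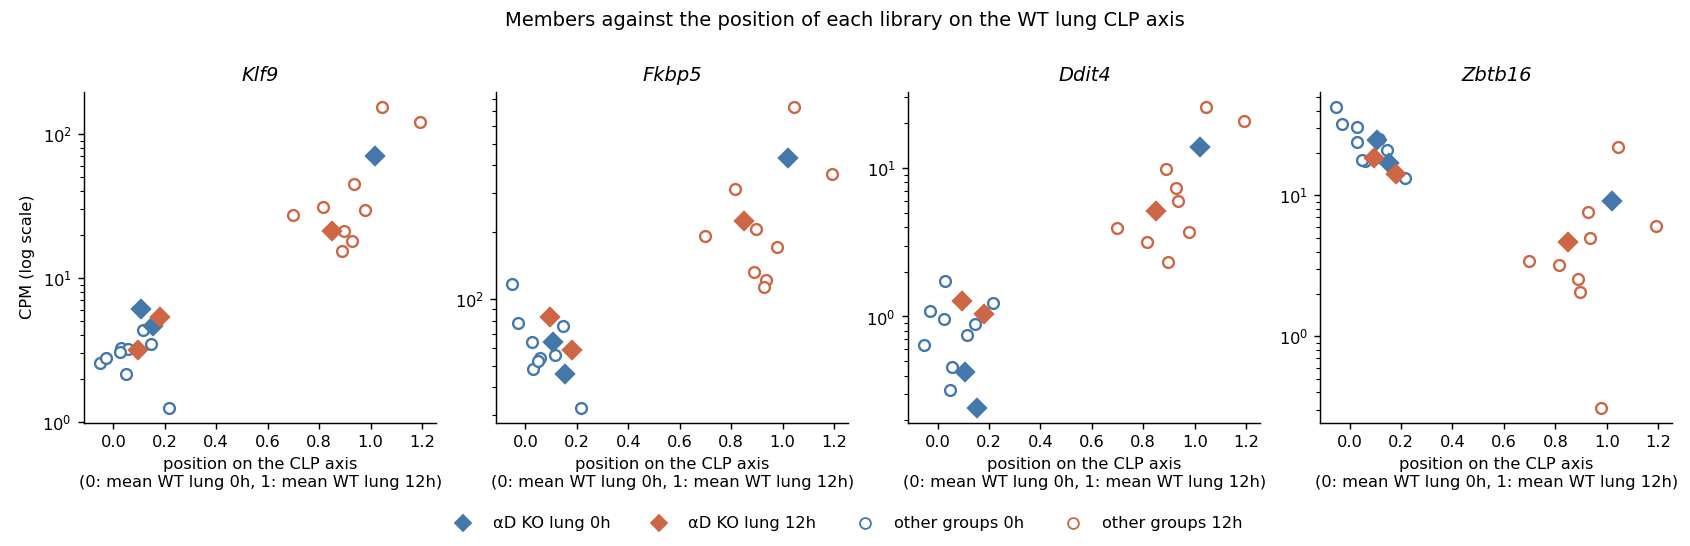
Level of Klf9, Fkbp5, Ddit4 and Zbtb16 (CPM, log axis) against the position of each of the 24 libraries on the axis from WT lung 0h to WT lung 12h, with WT lung libraries placed by the other libraries of their groups; filled diamonds are αD KO lung and open circles are the other groups, coloured by the time on the label. One 0h diamond lies at 1.019 among the 12h libraries, and a pair of 12h diamonds lies at 0.095 and 0.181 among the 0h libraries.

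Over all strata, 3 members were DEGs at 12 hours against 0h, among 7.51% of 23168 genes. Klf9 (log2 fold change 2.74, SE 0.78, edgeR adjusted p = 0.0262) and Anxa1 (1.54, SE 0.45, adjusted p = 0.0286) were higher, and Zbtb16 was lower (-1.94, SE 0.44, adjusted p = 0.00965). Fkbp5 was at 1.19 (adjusted p = 0.0653) and Ddit4 at 2.12 (adjusted p = 0.0708). With the 2 files of sample 1 summed, none of the 3 was a DEG (0.0135% of all genes), with edgeR adjusted p = 0.129 for Klf9, 0.105 for Anxa1 and 0.0989 for Zbtb16. Before adjustment, 6 members and 5728 of 23168 genes had an edgeR p under 0.05 in the fit of separate libraries. The median of all genes was -0.62 in the fit of separate libraries, and -0.01 among genes with at least 10 counts in each library. Without the αD KO lung groups, 5 members were DEGs (18.3% of all genes), with Klf9 at 3.74, Ddit4 at 3.0, Anxa1 at 2.17, Fkbp5 at 1.76 and Zbtb16 at -2.44. Without the 3 libraries alone, the same 5 members were DEGs (12.5% of all genes). DESeq2 on all libraries called those 5 as well (11.3%). Within libraries 1b alone, 5 members were DEGs (10.6%), with Klf9 at 3.14, and within libraries 1a and 2 alone edgeR called none (0.0%, with 3 members and 3720 genes at an unadjusted p under 0.05), with Klf9 at 2.88 and an SE of 1.17. Leaving out library 2 of αD KO lung 0h, or library 1a or 2 of αD KO lung 12h, gave 5 members (11.9%, 9.32% and 9.07% of all genes), and leaving out library 1b of WT lung 0h or library 1b or 2 of αD KO blood 0h gave Zbtb16 alone (5.73%, 5.61% and 6.08%).

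Between lung and blood no member was a DEG with edgeR. At 0h in WT, values of the tissues overlapped for all 8 members, while 6.85% of all genes did not overlap, and edgeR called no gene (0.0% of 15967, 406 at an unadjusted p under 0.05), while DESeq2 called 0.294% and no member. At 12 hours in WT, Klf9 was 121, 27.2 and 154 CPM in lung and 29.7, 30.9 and 15.4 CPM in blood, a log2 difference of 1.96 (SE 0.57, edgeR adjusted p = 0.165), with library 1b of lung inside the range of blood. EdgeR called 0.0442% of all genes there, with 2454 of 13590 genes and 4 members at an unadjusted p under 0.05. The DESeq2 share was 8.26%, with Klf9 alone of the members (adjusted p = 0.0143). Libraries of the tissues did not overlap for 2 members at 12 hours in WT, against 23.7% of all genes. Anxa1 was below blood in lung (log2 difference -1.07, SE 0.38, edgeR adjusted p = 0.211), and Zbtb16 was above it, with 6.11, 3.44 and 22.0 CPM in lung and 0.313, 3.22 and 2.55 CPM in blood (2.33, SE 0.915, edgeR adjusted p = 0.24). Tsc22d3 was 1770, 782 and 2420 CPM in lung and 675, 577 and 958 CPM in blood, with a log2 difference of 1.15 (SE 0.44, edgeR adjusted p = 0.232). Libraries 1a and 2 alone gave 6 members in WT at 12 hours (28.2% of all genes), with Fkbp5, Tsc22d3, Klf9, Zbtb16 and Ddit4 higher and Anxa1 lower in lung. Leaving out library 1b of WT lung 12h gave 3 members (20.2%), and leaving out any other library gave none. In αD KO, edgeR called no member at 0h (0.0% of all genes, 553 genes and 1 member at an unadjusted p under 0.05; DESeq2 0.568%, no member) or at 12 hours (0.0548%, 1 member at an unadjusted p under 0.05). One member did not overlap between tissues at each time in αD KO, Klf9 higher in lung at 0h (7.15% of all genes) and Anxa1 lower in lung at 12 hours (27.8%). DESeq2 called 10.2% of all genes at 12 hours and Anxa1 among the members (-1.77, adjusted p = 0.0108). The edgeR value of Anxa1 was -1.82 (adjusted p = 0.129) with all libraries and -1.78 (adjusted p = 0.43) without the libraries placed against their label, which leaves 1 lung library, assumed to vary like those of blood. Leaving out library 1b of αD KO lung 12h gave 1 member (11.2%), and libraries 1a and 2 alone gave 4 members (34.3%), both lung libraries being ones placed against their label. Over all strata no member was called by edgeR (1.29% of all genes, 2810 genes and 2 members at an unadjusted p under 0.05) or DESeq2 (3.35%). Lung epithelial and endothelial markers (12 genes) differed between tissues in the same libraries. Their sum at 12 hours was 80.6 to 448 CPM in lung and 17.5 to 21.5 CPM in blood in WT (median log2 difference 2.99, 1 of 12 called higher), and 68.8 to 223 CPM and 11.5 to 25.9 CPM in αD KO (4.71, 2 of 12). At 0h the sums were 59.8 to 215 CPM in lung and 25.7 to 300.0 CPM in blood in WT, which overlapped (0.17, none called), and 146 to 886 CPM and 26.3 to 40.4 CPM in αD KO (2.18, none called). Over all strata 5 of the 12 were called higher in lung. Their part in the members' differences between tissues was not tested.

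Between the libraries labelled αD KO and WT, edgeR called no member in any tissue or time. In blood the labels overlapped for all 8 members at both times, and 3.35% of all genes at 0h and 9.76% at 12 hours did not overlap. EdgeR called 0.0115% of all genes at 0h and 0.0% at 12 hours in blood, where 123 and 505 genes and no member were under 0.05 before adjustment, and DESeq2 called 0.0346% and 0.127% and no member. Klf9 in blood at 12 hours differed by 0.21 (SE 0.42, edgeR adjusted p = 0.979) on the log2 scale and Fkbp5 by -0.42 (SE 0.42, adjusted p = 0.965). In lung at 0h, edgeR called 0.0% of all genes and DESeq2 0.0439%, with 340 genes and 2 members (Klf9 and Sgk1) at an unadjusted p under 0.05. Klf9 there was at 3.02 (SE 1.06, edgeR adjusted p = 0.983), and at 0.70 without library 2 of αD KO lung 0h. Sgk1 there was 100, 160 and 112 CPM in αD KO, against 241, 168 and 237 CPM in WT lung, a log2 difference of -0.80 (SE 0.31, edgeR adjusted p = 0.983), without overlap, and -0.80 without library 2 of αD KO lung 0h. Libraries did not overlap for 3 members in lung at 0h (Klf9 higher, Sgk1 and Zbtb16 lower in αD KO; 7.58% of all genes) and for 3 at 12 hours (Klf9, Anxa1 and Sgk1, all lower; 10.9%). In lung at 12 hours, Klf9 was 3.15, 21.2 and 5.37 CPM in αD KO, against 121, 27.2 and 154 CPM in WT lung, a log2 difference of -3.30 (SE 0.87, edgeR adjusted p = 0.598). EdgeR called 0.0% of all genes there, with 1390 genes and 3 members at an unadjusted p under 0.05. The DESeq2 share was 1.07%, with Klf9 the only member (-3.35, adjusted p = 0.0101). Libraries 1a and 2 alone gave 4 members (30.1%), all lower in αD KO, and both αD KO libraries there are ones placed against their label. Without them the difference for Klf9 was -2.31 (SE 1.19, edgeR adjusted p = 1.0), resting on 1 library labelled αD KO that is assumed to vary like those of WT. Over all strata edgeR called 0.0518% of all genes and no member, with Sgk1 at -0.40 (SE 0.17, adjusted p = 1.0) and an unadjusted p of 0.0239, and DESeq2 called 0.0691% and no member.

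The differences between changes were tested as interactions at an adjusted p under 0.05. EdgeR called no gene in any of the 4, genotype by time in blood (0.0%) and lung (0.0%) and tissue by time in WT (0.0%) and αD KO (0.0%). At an unadjusted p under 0.05 there were 0, 4, 1 and 4 members and 232, 2432, 1290 and 2352 genes. DESeq2 called Klf9 in genotype by time in lung (adjusted p = 0.00563, with 1.53% of all genes) and in tissue by time in αD KO (adjusted p = 0.0211, 1.36%). In edgeR the latter was -5.48 (adjusted p = 0.403) with all libraries and -1.98 (adjusted p = 1.0) without the 3 libraries placed against their label, where αD KO lung 12h is again 1 library with no spread of its own, as it is for genotype by time in lung without them. DESeq2 called no member in genotype by time in blood (0.00505%) or tissue by time in WT (0.43%). The edgeR interaction of Klf9 in lung was -6.47 (SE 1.51, adjusted p = 0.41) with all libraries and -3.0 (SE 1.07, adjusted p = 1.0) without the 3 libraries placed against their label, and Ddit4 went from -5.33 to -0.42. Libraries 1a and 2 alone gave Klf9 and Ddit4 in genotype by time in lung (13.2% of all genes), and Klf9 in tissue by time in WT (2.84, adjusted p = 0.0131, 7.41% of all genes). Leaving out library 1b of WT lung 12h also gave 1 member there (0.68%). A larger rise of Klf9 in WT lung than in WT blood was thus called only in sets without library 1b of WT lung 12h. The set of libraries 1a and 2 was chosen after the data were seen. In library 1b at 12 hours, Klf9 was 27.2 CPM in WT lung and 30.9 CPM in WT blood. The value over all libraries was 1.96 (SE 0.75, edgeR adjusted p = 0.876), and with the files of sample 1 summed edgeR called 0 members (0.0% of all genes).

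Other genes that glucocorticoids induce did not move one way. Of 20 such genes besides the members, 19 were tested in WT blood, where 3 rose and 5 fell beside 13.5% of all genes called, with a median log2 fold change of -0.68 against -0.15 for all genes. In WT lung, 4 of 20 rose and none fell (9.02% of all genes called, median 0.68 against 0.03), and in αD KO blood 4 of 18 rose and 1 fell (8.75% of all genes called, median -0.73 against -0.14). Lcn2, an iron-scavenging granule protein, rose in all 3, with 560, 302 and 462 CPM at 0h and 21200, 15300 and 17300 CPM at 12 hours in WT blood (log2 fold change 5.29, edgeR adjusted p = 0.00205). Il1r2, the decoy receptor of interleukin 1, rose by 2.67 in WT blood (adjusted p = 0.0187), 3.32 in WT lung (0.0411) and 3.87 in αD KO blood (0.0115). The metallothionein gene Mt1 rose by 4.06 in WT blood (adjusted p = 0.00793) and 6.89 in WT lung (0.0245). Among the genes that fell in WT blood were Cxcr4, the receptor that holds neutrophils in bone marrow (-2.55, adjusted p = 0.00705), the transcription factor gene Cebpd (-1.97, adjusted p = 0.0182) and Irs2, an adaptor of insulin signalling (-1.70, adjusted p = 0.0209). Many of these genes are also known to answer to cytokines and endotoxin.

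Of 14 inflammatory genes that glucocorticoids lower in many cells, 11 were tested in WT blood, where 5 rose and 2 fell, beside 13.5% of all genes called. Their median log2 fold change there was 2.09, against -0.15 for all genes. In WT lung 5 of 13 rose and none fell (9.02% of all genes, median 3.71 against 0.03 for all genes), and in αD KO blood 3 of 11 rose and 2 fell (8.75% of all genes, median 1.75 against -0.14). Nos2, the inducible nitric oxide synthase, was 0.394, 3.53 and 0.679 CPM at 0h in WT blood and 205, 87.1 and 169 CPM at 12 hours, a log2 fold change of 6.82 (edgeR adjusted p = 0.0042). Tnf was 21.5, 25.0 and 43.7 CPM at 0h in WT lung and 1200, 71.9 and 1070 CPM at 12 hours, a log2 fold change of 4.66 (adjusted p = 0.026). The chemokine gene Cxcl1 rose by 3.78 in WT blood (adjusted p = 0.0316) and 5.13 in WT lung (0.0433). Il1b and Ptgs2, which encodes cyclooxygenase 2, fell in WT blood (-2.91, adjusted p = 0.0195, and -5.39, adjusted p = 0.00769) and in αD KO blood, and were at 0.41 (adjusted p = 0.782) and -0.59 (0.719) in WT lung. The members of the list went both ways in blood. In αD KO lung no gene of these lists was a DEG.

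**Figure D4:**
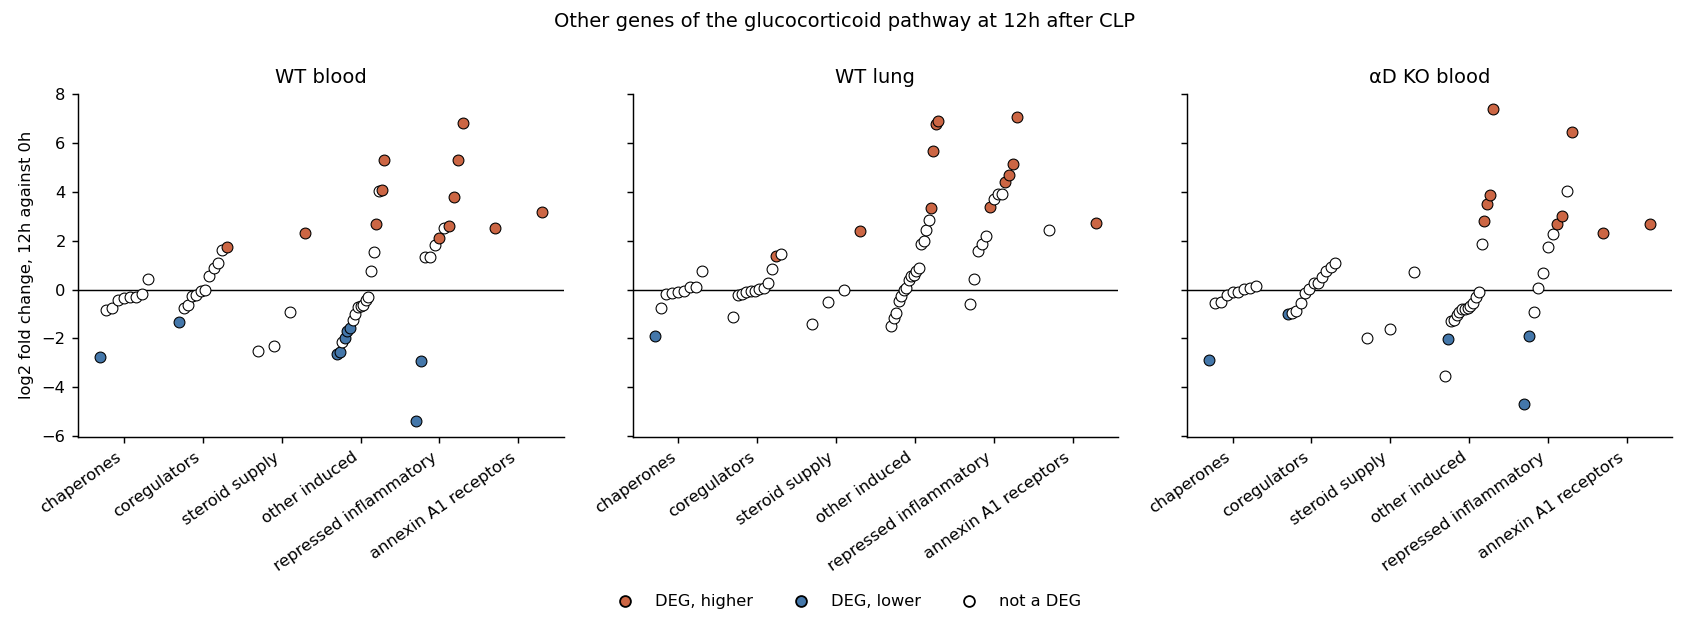
Log2 fold change at 12h against 0h for the genes tested in 6 lists around the receptor, in WT blood, WT lung and αD KO blood; each point is a gene, ordered by value within its list, and filled points are DEGs. Induced and inflammatory genes spread over both signs in blood, and all called genes of these 2 lists lie above 0 in WT lung.

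Over the 24 libraries, log2 CPM of Klf9 correlated with that of Fkbp5 (Pearson r = 0.91) and Ddit4 (0.875), and Fkbp5 with Ddit4 (0.83). Zbtb16 and Anxa1 were opposed (r = -0.733), and Nr3c1 had r between -0.141 and 0.522 with the other 7 members. These are descriptions over n = 24 libraries that fall into 8 groups and differ in depth, so the libraries are not independent points. Among 8215 genes with a mean of at least 5 CPM, the closest in pattern to Klf9 were Map4k4 (r = 0.956), Hip1r (0.95) and Fam214b (0.945), and to Fkbp5 they were Eif4g3 (0.955), Ube2z (0.927) and Tnf (0.915). Those of Ddit4 were Ripk3 (0.944), Klhdc4 (0.941) and Cyfip1 (0.938), those of Anxa1 were Apmap (0.966), Ldha (0.966) and 2610001J05Rik (0.963), and those of Zbtb16 were Csad (0.941), 2010310C07Rik (0.927) and Gm12216 (0.926). Nr3c1 was closest to Lpcat2 (0.9), Dram1 (0.855) and Rbm5 (0.854), and Tsc22d3 to Klf6 (0.861), D16Ertd472e (0.846) and Cd80 (0.842).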

How the data were processed

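RNA of sorted neutrophils was made into full-length cDNA (SMART-Seq v4) and Nextera XT libraries. Per the paper's methods and the submitters' processing notes, reads were trimmed (Trimmomatic 0.36) and aligned (STAR 2.5.2b, GRCm38), and the authors deposited counts of unique reads within exons per gene, not normalized. The counting tool and its use of strand are not given in the sources used here. The gene lengths deposited beside them were used only for levels per kilobase. Amplified reads without molecular identifiers are not independent molecules.

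Counts in 24 libraries (5753476 to 29984954 in total) were scaled by TMM and tested with edgeR 4.0.16 (R 4.3.3) after filterByExpr, in 19 comparisons of time, tissue, genotype and interactions. Adjusted p-values are Benjamini-Hochberg over all genes tested. DESeq2 1.42.0 was an alternative, beside another scaling, filters, all groups in one fit, summed files of sample 1, the library number as a block and libraries left out. Correlations used log2 CPM with a prior count of 1. The fitting code was tested on simulated data. Files 1a and 1b of a sample differed by more than counting noise (chi-square per degree of freedom 63.5 to 328), so they are not copies of each other. This does not show that they came from different mice. They were kept as separate libraries, with their sum as an alternative. Libraries of the same number deviated together in WT blood (r = 0.348, 0.413 and 0.116 between 0h and 12 hours for libraries 1a, 1b and 2), a hint from the data, since no label states a pairing. All 3 r were also over 0.1 for lung against blood in WT (0h and 12 hours) and for αD KO against WT in blood (both times) and in lung at 0h, where the block and the fit without it both gave 0 members. The block called 0.584% of all genes in place of 0.0% for lung against blood in WT at 0h, and 3.02% in place of 0.0442% at 12 hours. For αD KO against WT it called 0.0192% in place of 0.0115% in blood at 0h, 0.0% both ways at 12 hours, and 0.00854% in place of 0.0% in lung at 0h.

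Genes named besides the 8 members were, per pathway list, at most 3 DEGs in each direction over all strata, in WT blood or in WT lung, or else the 2 most abundant, the 2 most abundant markers per cell type, and the 3 closest genes in pattern (those of Sgk1 are not reported here). Elane and Ctsg, the granule markers most often at 0 counts, and Ncoa3 were named outside this rule, after their values were seen. Members and the lists of 139 genes were chosen with earlier results of these data known.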

Additional observations from a re-analysis of the deposited data

How the results depend on the processing

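Of 375 alternative counts of members called, 320 stayed within 1.5 times the value reported, and 55 did not. Of 2858 alternative values of single members, 2712 kept their direction and side of the threshold, 87 passed it newly, 59 no longer passed it, and no called value changed sign. For time in WT blood (4 members), no filter and all 8 groups in one fit both gave 2 (2.25% and 4.12% of all genes called, in place of 13.5%). In WT lung (3 members), DESeq2, the replicate block and libraries 1a and 2 alone gave 5 (18.9%, 11.7% and 37.2%, in place of 9.02%), and all 8 groups in one fit gave 1 (1.65%). In αD KO blood (2 members), no filter, DESeq2 and the replicate block gave 5 (4.05%, 17.6% and 9.86%, in place of 8.75%), and all 8 groups in one fit gave 0 (0.236%). Over all strata (3 members), the count was 0 with the files of sample 1 summed (0.0135%, in place of 7.51%) and with libraries 1a and 2 alone (0.0%). It was 5 with RLE scaling (7.92%), DESeq2 (11.3%), all 8 groups in one fit (7.72%), the replicate block (9.71%), libraries 1b alone (10.6%), no αD KO lung groups (18.3%), and without the 3 αD KO lung libraries (12.5%). Where the report gives 0 members, lung against blood at 12 hours gave 2 with no filter, 1 with DESeq2 and 6 with libraries 1a and 2 alone in WT (1.59%, 8.26% and 28.2%), and 2, 1 and 4 in αD KO (3.13%, 10.2% and 34.3%), with 2 when files were summed (8.27%). For αD KO against WT in lung at 12 hours the same 3 settings gave 2, 1 and 4 (0.489%, 1.07% and 30.1%). Genotype by time in lung gave 1 with DESeq2 (1.53%) and 2 with libraries 1a and 2 alone (13.2%), tissue by time in WT gave 1 with libraries 1a and 2 alone (7.41%), and in αD KO 1 with DESeq2 (1.36%). Leaving out 1 library gave 0 to 5 members in WT blood, 0 to 4 in WT lung, 0 to 3 in αD KO blood and 1 to 5 over all strata. It gave 0 to 3 for lung against blood at 12 hours in WT, and 0 to 1 for the same in αD KO and for tissue by time in WT, and 0 in the other 12 comparisons, with at most 1.78% of all genes called (lung against blood over all strata without library 1b of WT blood 0h), and 1.11% in place of 0.0% for αD KO against WT in lung at 12 hours without library 1b of WT lung. The cause of these shifts was not tested. Apart from the values given in the report and above, the block moved no count beyond 1.5 times. Library 1a fell short of r = 0.1 between times in WT lung (-0.065) and αD KO blood (0.089), and the check was not run over all strata, so the numbers were not taken as a pairing there. Alternatives with libraries 1a and 2 or 1b alone, or without αD KO lung libraries, were chosen after seeing the data. Over means of the 8 groups the closest genes in pattern differed from those over libraries, with Slc6a6 first for Nr3c1 (r = 0.964) and Kif1c for Klf9 (r = 0.995).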
